A study of Mus musculus with 11 samples.

Results

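H3K27ac in stomach glands of mice that carry active Notch and 1 floxed Arid1a allele was set against H3K27ac in wild-type glands. The comparison uses 4 of the 11 libraries of the series, 2 from each genotype, chosen by the mark and genotype in the labels and not by any measured value. The first group, called 1-allele here, has the genotype Atp4bCre; Rosa26NICD; Arid1aflox/+, and the second carries none of these alleles. Atp4bCre expresses Cre recombinase from Atp4b, a proton pump gene, so recombination is directed to parietal cells, while the glands hold other cell types too. The groups differ by Cre, by the Notch transgene and by the floxed allele at once, and the effects of these cannot be told apart here. The series also profiled glands with Notch activation alone (NICD), with 2 floxed alleles (2-allele), and H3K4me3 in 3 libraries, which are used below only to look up positions. Epithelial pellets were pooled until there was enough material, and nothing says that the libraries of a genotype came from different animals, so a p-value measures only the spread between these libraries.

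H3K27ac is an acetylation of histone H3 that marks active promoters and active enhancers, and H3K4me3 marks promoters. Arid1a is the DNA-binding subunit of the BAF form of the SWI/SNF complex, which slides and evicts nucleosomes and is known for keeping enhancers accessible. When a Notch receptor is activated, its intracellular domain is released, enters the nucleus and turns on targets such as the Hes and Hey repressors together with RBPJ. The gastric gland renews itself from dividing cells of the isthmus, with pit cells above and acid-secreting parietal cells, mucous neck cells and pepsinogen-secreting chief cells below.

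The files hold peak lists, so a region or promoter is either called or not called in a library, and a place without a call may still carry the mark. After duplicate removal the wild-type libraries held 18.26 M and 17.02 M tags and the 1-allele libraries 16.62 M and 9.76 M. The redundant rate was 0.10 and 0.16 in wild type and 0.14 and 0.31 in the 1-allele libraries, and the estimated fragment length was 141 and 162 bp against 175 and 220 bp. A promoter peak lies within 1 kb of the start of a protein-coding gene (GRCm38), and every other peak is distal. Of the other cell types the pellets could hold, blood cell genes had no promoter peak in any of the 4 libraries (0 of 30 genes, Ptprc, Cd3e, Cd68 and Lyz2 among them). Of 20 fibroblast and muscle genes 1 was called, in wild-type replicate 1 only, and of 16 endothelial genes Esam was called in all 4 libraries and the other 15, with Pecam1, Cdh5, Kdr and Tie1, in none. Of the parietal cell markers, Atp4a, the catalytic subunit of the proton pump, had no promoter peak in any library, while Atp4b was called in 3 of 4. In bulk tissue, fewer cells of a type and less mark per cell cannot be told apart.

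The 1-allele glands gave far shorter peak lists than wild type. Wild-type replicates 1 and 2 held 20590 and 18360 peaks, and 1-allele replicates 1 and 2 held 5165 and 7602. The means were 19475 ± 1577 and 6384 ± 1723 peaks (SD, n = 2 each), a ratio of 3.05, and the groups did not overlap. Both 1-allele libraries had fewer tags than both wild-type libraries, and within the 1-allele group the library with fewer tags had the longer list. The part of depth in list length was not tested. The peaks covered 6.01 and 5.92 Mb in wild type and 1.44 and 2.83 Mb in the 1-allele libraries. Both differences were larger than the spread between replicates, but 2 libraries against 2 cannot give a two-sided exact permutation p below 0.333, and that was the p for peaks and for covered length (adjusted p = 0.4 over 6 values).

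What remained on the shorter lists lay more often at promoters. Promoter peaks made up 60.3% and 61.2% of the wild-type lists and 73.2% and 78.8% of the 1-allele lists, a difference of 15.3 percentage points (exact permutation p = 0.333, n = 2 each). This did not hold with each list cut to its 5165 peaks of highest −log10 p-value. Distal peaks then made up 17.9% and 19.2% in wild type and 26.8% and 18.5% in the 1-allele libraries, so the groups overlapped. The summit of a promoter peak lay a little downstream of the gene start in every library, at a median of 173 and 182 bp in wild type and 215 and 205 bp in the 1-allele libraries. Median peak width overlapped between the groups, with 240 and 272 bp in wild type against 247 and 332 bp (exact permutation p = 0.667, n = 2 each). Median fold enrichment over the local background, a score by the authors, was 5.02 and 4.95 in wild type and 5.13 and 5.19 in the 1-allele lists (exact permutation p = 0.333, n = 2 each). These medians are over different sets of peaks. At the 3478 regions on all 4 lists, the median fold was 7.23 and 6.94 in wild type and 5.37 and 5.62 in the 1-allele libraries, and the median covered length was 469 and 484 bp against 281 and 408 bp. At shared places, then, both medians were lower in both 1-allele libraries.

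**Figure D1:**
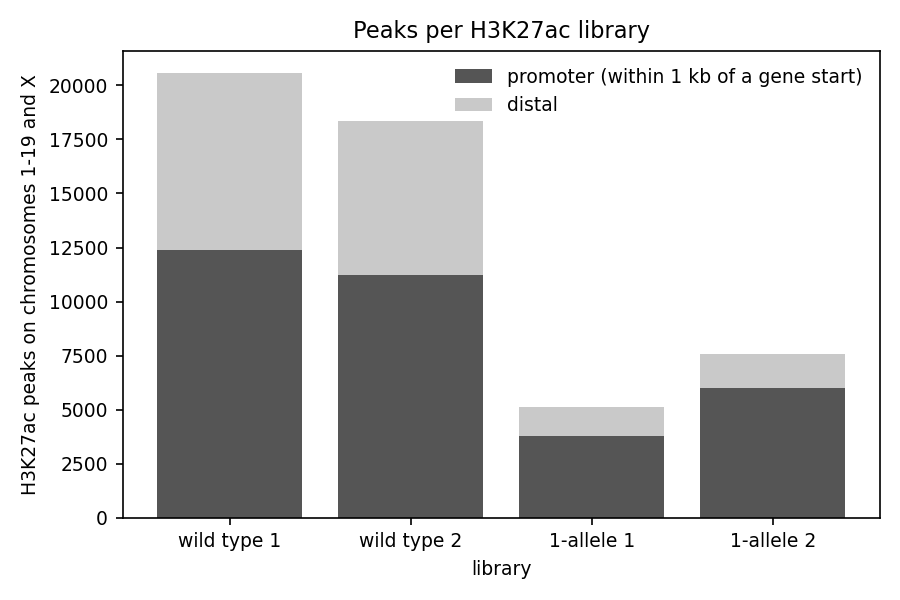
Number of H3K27ac peaks on chromosomes 1 to 19 and X (vertical axis) in each of the 4 libraries, split into promoter peaks (dark, within 1 kb of a gene start) and distal peaks (light). Both 1-allele bars, with 5165 and 7602 peaks over all chromosomes, are shorter than both wild-type bars, with 20590 and 18360.

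The positions of the 1-allele peaks were nearly all wild-type positions. Of the peaks of 1-allele replicates 1 and 2, 92.7% and 91.0% overlapped a peak of a single wild-type list, averaged over the 2 lists. In the other direction, 1-allele replicates 1 and 2 called 24.3% and 36.7% of wild-type peaks, averaged the same way. Wild-type replicates 1 and 2 called 73.7% and 67.0% of the peaks of each other (exact permutation p = 0.333 between the groups, n = 2 each). The 4 lists merged into 24926 regions, of which 3478 (14%) were called in all 4 libraries. In both wild-type libraries and neither 1-allele library 5580 regions were called, 22.4% of all merged regions, and these are called wild-type-only below. In both 1-allele libraries and neither wild-type library 4 regions were called, 0.016% of all. Without wild-type replicate 1, wild-type replicate 2 or 1-allele replicate 2 the wild-type-only count was 10231, 12149 and 8663, since fewer lists then had to meet the condition. The opposite count stayed far below it, at 39 to 344 without any 1 library.

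The 4 regions called only in the 1-allele libraries had a fold of 3.74 to 7.17. The strongest, chr13:77304786-77305014, had a fold of 6.26 and 7.17 in 1-allele replicates 1 and 2 and lay 169 kb from the nearest gene start. Another, chr10:77613288-77613607, lay 102 bp from a start of Sumo3, a ubiquitin-like modifier, with a fold of 4.69 and 4.71. The remaining regions lay inside Cenpo, a kinetochore gene, 12.5 kb from its start (4.95 and 4.01), and 1.11 kb from the start of Pirt, a regulator of TRP channels (3.97 and 3.74).

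Promoters showed the same one-sided pattern. Of 21631 protein-coding genes, 9791 and 9328 had a promoter peak in the wild-type libraries and 3773 and 5936 in the 1-allele libraries. The wild-type-only promoters numbered 2488 (11.5% of all genes), against 0 called in both 1-allele and neither wild-type library (0%), and 3173 (14.7%) were called in all 4. Any peak within 1 kb of any start of a gene counted, so Sumo3, despite the region above, was also called in wild type. Without 1-allele replicate 2 the wild-type-only promoters numbered 4978. Of the 8680 genes called in both wild-type libraries, 36.6% were called in both 1-allele libraries and 28.7% in neither.

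Strength in wild type went with being called in the 1-allele glands. Each of the 12992 regions called in both wild-type libraries was given its mean percentile of −log10 p-value within the 2 wild-type lists, and the regions were divided into 10 classes of that strength. 1-allele replicate 1 called 4.62% of the weakest class and 89.2% of the strongest, and replicate 2 called 11.2% and 96.1%. Wild-type-only regions had a median percentile of 43.5, and regions called in all 4 libraries one of 86.1. Read over all strengths, promoters were called more often than distal regions, with 37.8% against 25.4% in 1-allele replicate 1 and 57.8% against 30.0% in replicate 2. Inside classes of equal strength the replicates differed. In replicate 1 distal regions were called 1.97 percentage points more often than promoters, and in replicate 2 the gap was -12.0 points, which makes a mean gap of -5.01 ± 9.88 points (SD, n = 2). The sign of the distal gap was therefore not shared by the replicates, and with lists of equal length the mean gap was 0.491 points.

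**Figure D2:**
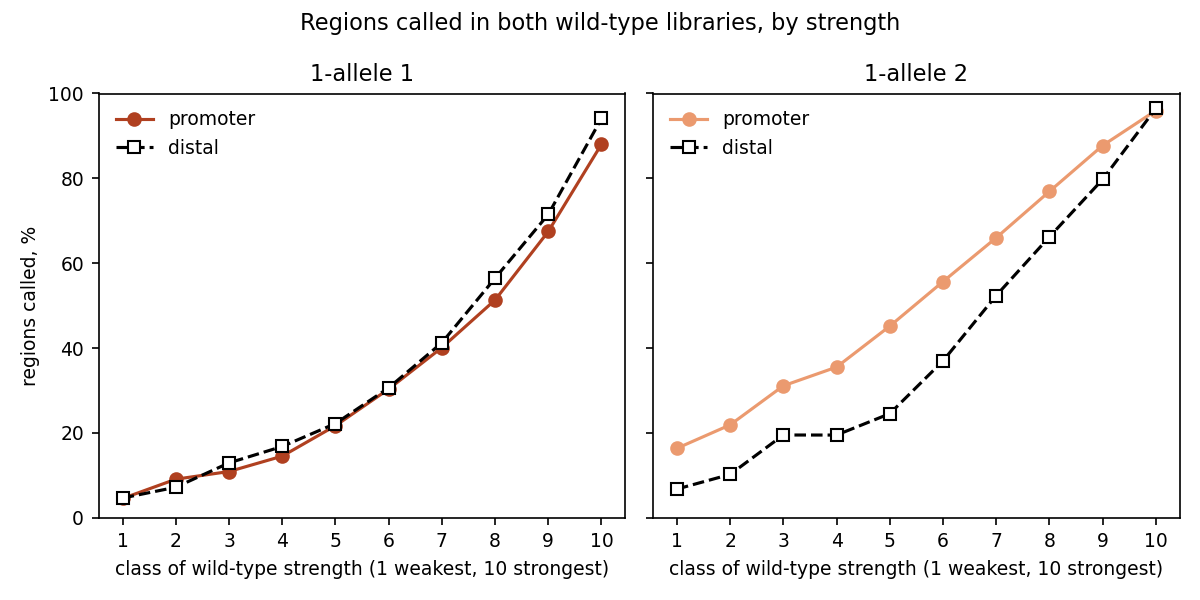
Share of regions called in both wild-type libraries that were also called in 1-allele replicate 1 (left) and replicate 2 (right), in percent, against 10 classes of wild-type strength, for promoters (filled) and distal regions (open). Both curves climb with strength in both libraries, from 4.62% and 11.2% of all regions in class 1 to 89.2% and 96.1% in class 10, and the distal curve lies below the promoter curve in classes 1 to 9 of replicate 2 and in class 2 alone of replicate 1.

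The genes the genotypes act on or report were read first. Arid1a (chr4:133679008-133756769) has 2 listed starts. At the start at position 133756769 both wild-type libraries and neither 1-allele library had a peak, and at the start at position 133753985 both wild-type libraries and 1-allele replicate 1 had one. Its best peak had a fold of 4.19 and 5.06 in wild type and 3.61 in 1-allele replicate 1. These peaks do not show whether Cre removed the floxed sequence. Notch1, the receptor whose intracellular part the transgene supplies, had a fold of 3.91 and 3.98 in wild type and no peak in either 1-allele library. Hes1, a direct Notch target, had 2.97 and 2.77 in wild type and no 1-allele peak. Atp4b, the gene whose control region drives Cre, had 4.12 and 3.90 in wild type, 4.03 in 1-allele replicate 1 and no peak in replicate 2. Notch1 and Hes1 were thus wild-type-only promoters, and Arid1a and Atp4b were not. In the wild-type lists Notch1 ranked 11741 and 12045 and Hes1 ranked 12806 and 14283. These ranks lie beyond the whole length of the 1-allele lists (5165 and 7602 peaks). Neither promoter had a peak among the 5165 strongest of any of the 4 lists.

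The strongest wild-type-only promoters belonged to genes of varied function. St6galnac2, a sialyltransferase that acts on mucin-type glycans, ranked 312 and 478 in the wild-type lists with a fold of 8.19 and 7.76. Zfp445, a zinc finger protein that helps maintain imprinting, ranked 388 and 811 with a fold of 13.2 and 10.8. Med30, a subunit of the Mediator complex, ranked 665 and 759 (fold 12.03 and 10.8). Neither 1-allele library called any of them, although all 3 were called in both NICD libraries and at least 1 of the 2-allele libraries. Pdhb, the beta subunit of the pyruvate dehydrogenase E1 component, ranked 653 and 901 (fold 10.1 and 8.72), and Exo1, an exonuclease of mismatch repair, ranked 1096 and 772 (fold 11.2 and 11.1). Ihh, the Indian hedgehog ligand, ranked 1407 and 808 with a fold of 6.79 and 6.63. Fdxr, a mitochondrial reductase that feeds electrons to steroid-synthesising enzymes, ranked 393 and 1739. The other promoters among the 12 strongest were those of Leng8, Mtmr12, Tmem167b, Ankrd39 and Slbp, the last of which binds the stem-loop of histone messenger RNA.

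The promoters of 3 of these genes are printed with those of 3 genes that stood higher in the 1-allele lists. They show the sequence around a start, and not the sequence under the summit of the mark. Each is 300 bases of the gene's own strand from RefSeq (GRCm38.p6), from 250 bases before to 50 after a listed start. Capitals mark matches, on either strand, to GGGCGG (the core of SP and KLF sites), CCAAT (NF-Y) and TGANTCA (AP-1). The first 3 are wild-type-only promoters, Zfp445 (chr9:122865957-122866256, minus strand), Pdhb (chr14:8172943-8173242, minus) and Ihh (chr1:74951623-74951922, minus). The other 3, Sgk1 (chr10:21993640-21993939, plus), Lgr4 (chr2:109917397-109917696, plus) and Slc7a1 (chr5:148399855-148400154, minus), are described below.
Zfp445: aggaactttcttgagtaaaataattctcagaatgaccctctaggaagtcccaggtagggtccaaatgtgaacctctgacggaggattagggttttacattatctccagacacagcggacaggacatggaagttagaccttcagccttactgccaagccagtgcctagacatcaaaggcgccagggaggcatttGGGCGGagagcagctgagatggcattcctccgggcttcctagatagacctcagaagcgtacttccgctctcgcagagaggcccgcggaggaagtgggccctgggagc
Pdhb: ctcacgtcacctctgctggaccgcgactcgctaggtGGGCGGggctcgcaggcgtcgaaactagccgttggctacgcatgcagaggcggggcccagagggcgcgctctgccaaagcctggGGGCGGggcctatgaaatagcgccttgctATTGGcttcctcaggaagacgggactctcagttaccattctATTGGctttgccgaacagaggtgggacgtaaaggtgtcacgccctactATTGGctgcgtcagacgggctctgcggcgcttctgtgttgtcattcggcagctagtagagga
Ihh: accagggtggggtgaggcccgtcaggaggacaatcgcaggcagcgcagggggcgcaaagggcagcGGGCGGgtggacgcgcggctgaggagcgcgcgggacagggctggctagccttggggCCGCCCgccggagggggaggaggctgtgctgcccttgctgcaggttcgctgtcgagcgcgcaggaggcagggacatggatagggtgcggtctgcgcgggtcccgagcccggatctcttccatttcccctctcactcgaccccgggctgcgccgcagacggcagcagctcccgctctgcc
Sgk1: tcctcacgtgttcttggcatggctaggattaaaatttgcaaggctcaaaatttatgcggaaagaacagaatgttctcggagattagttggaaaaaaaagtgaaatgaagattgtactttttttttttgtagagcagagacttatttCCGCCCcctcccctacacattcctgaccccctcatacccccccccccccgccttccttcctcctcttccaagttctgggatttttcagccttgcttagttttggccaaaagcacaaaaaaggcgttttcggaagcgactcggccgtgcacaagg
Lgr4: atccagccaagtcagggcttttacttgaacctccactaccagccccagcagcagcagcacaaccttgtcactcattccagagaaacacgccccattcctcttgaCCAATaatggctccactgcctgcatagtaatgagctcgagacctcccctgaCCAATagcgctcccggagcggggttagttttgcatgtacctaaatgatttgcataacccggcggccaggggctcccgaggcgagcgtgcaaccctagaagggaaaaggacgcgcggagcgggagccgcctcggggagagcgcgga
Slc7a1: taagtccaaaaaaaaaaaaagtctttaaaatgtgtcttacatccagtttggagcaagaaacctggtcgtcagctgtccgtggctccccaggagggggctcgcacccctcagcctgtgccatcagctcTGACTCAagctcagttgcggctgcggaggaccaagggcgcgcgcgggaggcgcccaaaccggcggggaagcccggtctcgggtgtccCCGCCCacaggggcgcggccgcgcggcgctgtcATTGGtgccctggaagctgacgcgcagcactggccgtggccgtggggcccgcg
Pdhb holds 24 CpG pairs, 2 matches to the GC box core and 3 to the CCAAT box, while Zfp445 and Sgk1 hold 10 CpG pairs each. GC content ran from 46.3% in Sgk1 to 72.7% in Ihh, with 53.7% in Zfp445, 61% in Pdhb, 58.3% in Lgr4 and 65% in Slc7a1. The summit of the wild-type replicate 1 peak lay downstream of the start in all 6, by 137 bp (Zfp445) to 650 bp (Lgr4). It therefore lay outside the printed bases in each.

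Wild-type-only promoters were rich in CpG pairs, as were those called in all 4 libraries. Each start in the promoter table was classed by its own calls here, which can differ from the class of its gene. Wild-type-only starts (2351) had a median of 21 CpG pairs and a GC content of 61.3%. Those called in all 4 libraries (3007 starts) had 25 pairs and 65%. Starts with no peak in any of the 4 libraries (10910) had 4 pairs and 50.7%. GGGCGG was found in 67.8% of wild-type-only promoters, 73.3% of those called in all 4 and 46.7% of all 21045. CCGGAAG, an ETS site, was found in 20.0%, 20.9% and 11.7%, and TGGGAA, the core of the RBPJ site, in 23.1%, 20.1% and 24.2%. Both strands were searched, and matches to different motifs may overlap. A match is a string of letters and not a bound site.

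Cutting each list to its 5165 peaks of highest −log10 p-value, the length of the shortest list, made the lists equal and the counts far less one-sided. The equal lists merged into 8947 regions, of which 2117 (23.7%) were on all 4. Wild-type-only regions numbered 462 (5.16%) and regions called in both 1-allele and neither wild-type list, called 1-allele-only below, numbered 272 (3.04%). At promoters the counts were 380 (1.76% of genes) and 182 (0.841%), with 2019 (9.33%) on all 4 lists. Leaving out wild-type replicate 1 or 2 raised the counts and kept their order, with 1165 or 1186 wild-type-only and 534 or 575 1-allele-only regions. Without 1-allele replicate 1 the order turned, with 880 and 1229 regions and 728 and 779 promoters. Without 1-allele replicate 2 it turned for regions (1030 and 1412) and not for promoters (920 and 590). Distal regions made up 14.1% of the wild-type-only and 29.0% of the 1-allele-only regions, against 17.1% of those on all 4 lists and 24.3% of all merged regions. By library, distal peaks made up 26.8% of the equal list of 1-allele replicate 1 and 17.9% to 19.2% of the others.

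The 1-allele-only regions of the equal lists were not absent from wild type. Of the 272, 87.9% were on both full wild-type lists, below the rank where those were cut, and 2 were on neither. Of the 462 wild-type-only regions, 287 (62.1%) were on neither full 1-allele list. The choice of these promoters fixes on which side of that rank each library lies, and the full lists differ in length, so only their fold on the full lists is given, as a description. Sgk1, a serum- and glucocorticoid-induced kinase that controls sodium transport, had a fold of 4.96 and 7.24 in the 1-allele libraries and 3.78 and 3.74 in wild type. Map1lc3b, the autophagosome protein LC3B, had a fold of 6.07 and 5.79 against 5.53 and 4.84.

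The fold at others of the 12 strongest is given in the same way. Krt19, a keratin of simple epithelia, had a fold of 3.94 and 4.06 in the 1-allele libraries and 3.62 and 2.96 in wild type. Lgr4, a receptor for R-spondins that strengthens Wnt signals, had 5.26 and 5.09 against 4.79 and 4.64. The groups overlapped in fold at Rragc, a GTPase that recruits mTORC1 to lysosomes (6.34 and 6.17 against 6.30 and 5.67), and at Rdh10, which makes retinaldehyde from retinol (5.05 and 5.31 against 5.07 and 4.82). At Ripply3, a transcriptional repressor, the fold was 6.06 and 5.78 against 3.80 and 5.64. The remaining promoters among the 12 strongest were those of Swsap1, Lsm14a, Pafah2, Rapgefl1 and Nudt16.

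Among the wild-type-only promoters of the equal lists, the 12 strongest again held St6galnac2, Zfp445, Med30, Pdhb, Exo1, Fdxr, Ihh and Tmem167b. The other 4 were on the full list of 1-allele replicate 2, below the rank where it was cut. The promoter shared by Emc1, of the complex that inserts membrane proteins, and Mrto4, a ribosome assembly factor, had a fold of 10.02 and 8.94 in wild type and 4.44 in 1-allele replicate 2. Rab5c, a GTPase of early endosomes, had 9.04 and 8.41 against 4.08. Stxbp2, a regulator of vesicle fusion, had 9.91 and 8.87 against 4.50, and Tmed10, a cargo receptor of the early secretory pathway, 8.05 and 8.33 against 4.43.

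Ranks could also be compared at the 2019 promoters on all 4 equal lists. Both wild-type libraries ranked above both 1-allele libraries at 475 promoters (23.5%), and the reverse held at 277 (13.7%). The largest difference was at the promoter shared by Cwc27 and Srek1ip1, both splicing genes, which ranked 399 and 540 in wild type and 3930 and 4880 in the 1-allele lists. Its fold was 10.6 and 9.90 in wild type and 4.79 and 4.87 in the 1-allele lists. Nsmce4a, of the SMC5/6 complex, ranked 1777 and 144 against 4033 and 4922. Cxadr, a junction protein of epithelia, ranked 1071 and 277 against 4643 and 3221. Mecom, a zinc finger transcription factor, ranked 1175 and 755 against 3675 and 4625.

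In the opposite direction the largest difference was at Slc7a1, which carries arginine and lysine into cells. It ranked 875 and 475 in the 1-allele lists and 5010 and 4766 in wild type, with a fold of 6.34 and 7.70 against 6.24 and 6.13. Zfx, an X-linked zinc finger activator, ranked 1818 and 888 against 4902 and 4898. Ptpn18, a tyrosine phosphatase, ranked 883 and 1662 against 4308 and 5035. Gigyf2, which represses translation, ranked 1292 and 716 against 3817 and 4630. At Slc7a1 the groups were thus far apart in rank and close in fold.

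**Figure D3:**
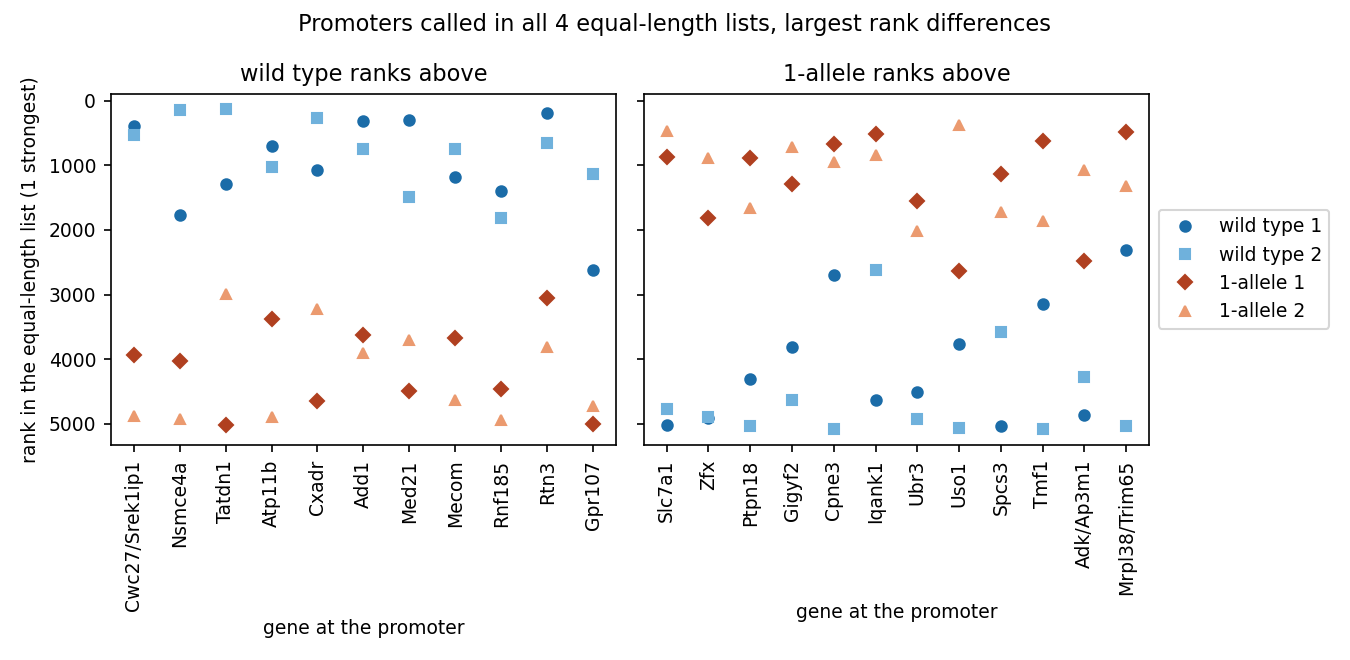
Rank of the promoter peak in each equal-length list (vertical axis, 1 strongest at the top) for promoters among the 12 with the largest rank difference in each direction, chosen for that difference. On the left, led by Cwc27/Srek1ip1, both wild-type libraries (blue) stand above both 1-allele libraries (red), and on the right, led by Slc7a1, they stand below.

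Distal regions that separated the groups were read by their nearest gene start, which does not show that they act on that gene. Wild-type-only distal regions of the full lists numbered 2321, 41.6% of the wild-type-only regions, against 18.0% of regions called in all 4 libraries and 45.9% of all merged regions. Their median distance to a gene start was 22.4 kb. Among the 10 strongest, chr11:69409292-69409569 lay inside Kdm6b, a demethylase of H3K27, 10.8 kb from its start, with a fold of 6.07 and 5.36 in wild type. The region chr7:98849922-98850445 lay inside Wnt11, a Wnt ligand, 11.1 kb from its start (fold 5.60 and 5.66). The region chr16:92039216-92039618 lay 18.7 kb from Slc5a3, an inositol transporter (8.50 and 7.54), and chr8:94354421-94354737 inside Slc12a3, a sodium chloride transporter (5.18 and 7.08). Neither 1-allele library called any of these 4 regions, and both NICD libraries called all of them.

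Some genes were nearest to several wild-type-only distal regions, in a ranking made after the values were seen. Of the genes with at least 1, 1379 had 1 and 2 had 6. These 2 were Irs2, which relays insulin signals, and Nr2f2, an orphan nuclear receptor, each with 6 of its 8 distal regions called in both wild-type libraries. Shh, the sonic hedgehog ligand made by parietal cells, had 5 of 5, and Id2, an inhibitor of basic helix-loop-helix factors, 5 of 5. Smad7, an inhibitor of TGF-beta signalling, had 5 of 7, with 2 called in all 4 libraries. Over all genes, 2321 of the 3804 distal regions called in both wild-type libraries were wild-type-only, so most such regions behaved this way. A gene with a large gap around it collects more regions, and no correction for this was made.

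The distal 1-allele-only regions of the equal lists were led by regions near the top of both 1-allele lists. The strongest, chr14:119286783-119287170 inside Hs6st3, ranked 193 and 254 in the 1-allele lists, with a fold of 11.8 and 11.3 against 7.68 and 5.94 in wild type. The next, chr1:71079186-71079572 inside Bard1, ranked 184 and 302, with a fold of 11.3 and 10.5 against 7.68 and 6.93. Regions inside Trhde, near Tmcc3 and inside Ranbp3l followed with a fold of 7.87 to 11.7 in the 1-allele libraries and 5.76 to 7.29 in wild type. Regions on different chromosomes shared a fold: 7.68 in wild-type replicate 1 at both Hs6st3 and Bard1, and 6.93 in wild-type replicate 2 at Bard1, Trhde and near Sucla2. A shared fold was not particular to these regions. Promoters on different chromosomes shared one too, as at Rbpj and Smarcc2 (5.89 in wild-type replicate 2) and at Cd14 and Bcl2 (5.10 in 1-allele replicate 1). No genome sequence was used for these regions, and whether they hold repeats that share reads was not tested. Of the 79 distal 1-allele-only regions, 54.4% overlapped a peak of the Arid1a-floxed H3K4me3 library, against 9.23% of the 65 distal wild-type-only regions. In the wild-type H3K4me3 library the shares were 77.2% and 63.1%, and in the 2-allele H3K27ac libraries 49.4% and 49.4% against 87.7% and 80.0%. In the same order of libraries, distal regions on all 4 lists had 66.0%, 94.8%, 76.5% and 75.7%. All merged distal regions had 24.9%, 52.9%, 61.7% and 57.1%. Overlap with H3K4me3 in these 2 libraries was thus highest in the shared regions. These shares are descriptions with no test. For that Arid1a-floxed library the title and the genotype field differ on whether 1 or 2 alleles were floxed.

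**Figure D4:**
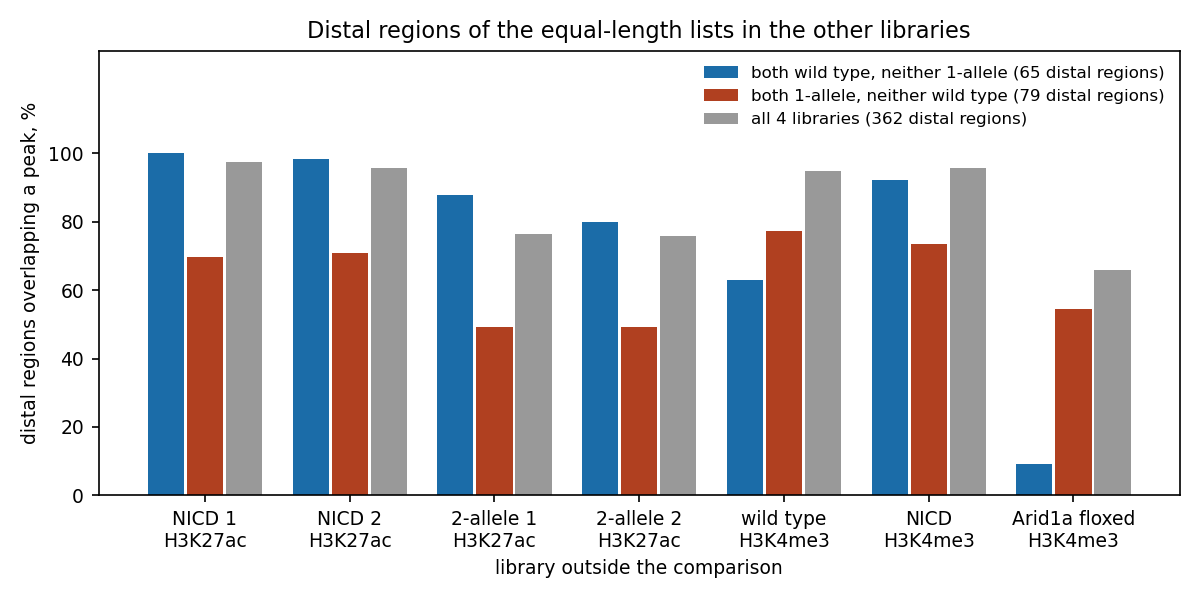
Share of distal regions (percent) of the equal-length lists that overlap a peak in each of 7 libraries outside the comparison, for 65 wild-type-only regions (blue), 79 1-allele-only regions (red) and 362 regions on all 4 lists (grey). The red bar is the lowest of the 3 in all 4 H3K27ac libraries and in NICD H3K4me3, and the blue bar is the lowest in wild-type H3K4me3, at 63.1%, and in Arid1a-floxed H3K4me3, at 9.23%.

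One stretch of chromosome 9 stood out among the distal regions of all 4 libraries. Between positions 3000017 and 3038296, near the first bases of the assembled chromosome and a median of 315 kb from Alkbh8, 18 distal regions were called in all 4 libraries, and all of them (100%) were also on all 3 H3K4me3 lists. A peak there, chr9:3025515-3025942, was also among the 10 strongest 1-allele-only distal regions, with a fold of 1.71 and 1.60 in wild type and 1.58 and 1.84 in the 1-allele lists, far below the fold of the others.

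The wild-type-only regions of the full lists were called elsewhere in the series. NICD replicates 1 and 2 called 95.9% and 82.3% of the 5580, and the 2-allele libraries called 62.7% and 56.4%. Of the 12992 regions called in both wild-type libraries, the same 4 libraries called 97.7%, 91.2%, 80.0% and 75.9%, and of all merged regions 86.0%, 70.6%, 55.6% and 52.3%. These 4 libraries also carry the Cre and Notch alleles. Their lists are longer than the 1-allele lists, at 41405 and 25442 peaks (NICD) and 15362 and 14373 (2-allele). The part of list length in these shares was not tested. The share was higher at promoters than at distal regions, with 90.2% and 70.0% called in both NICD libraries and 66.9% and 24.2% in both 2-allele libraries. The 2-allele lists carry no scores, and how they were called is not known here.

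Promoters of 26 gene lists, chosen with earlier results of these data known, were read library by library against the background of all genes, of which 11.5% were wild-type-only and 14.7% were called in all 4. That background counts 11126 genes with no peak in any of the 4 libraries. Of the genes called in both wild-type libraries, 28.7% were called in neither 1-allele library. Read that way, the share was 55.6% for isthmus (5 of 9) and 54.5% for pit cell genes (6 of 11). It was 53.3% for Wnt (8 of 15), 52.2% for apoptosis (12 of 23) and 45.5% for parietal cell genes (5 of 11). In the same order, their median wild-type percentiles were 38.9, 65.7, 70.4, 70.1 and 65.3, against 72.0 over all genes. The part of wild-type strength in these shares was not tested. The share was 37.5% for cell cycle, 36.8% for junction, 33.3% for secretory, 30% for immediate early and 29.4% for gastric transcription factor genes. It was below the background for mitochondrial (20%), Notch (19.05%), inflammatory (18.8%), chromatin (18.2%), SWI/SNF (15.8%), p53 (13.6%) and housekeeping genes (12%). The median wild-type percentiles of these last lists ran from 69.5 (Notch) to 85.2 (chromatin). In equal lists the share was 11.6% over all genes, and p53 (20%), junction (20%), SWI/SNF (16.7%) and mitochondrial genes (15.8%) were above it. Secretory genes had 10% and housekeeping genes 9.09% there, and Notch, inflammatory and chromatin genes had 0%. Lists with fewer than 8 members called in both wild-type libraries are left out of this reading. No list had a member called in both 1-allele and neither wild-type full list.

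Genes of programmed cell death had the highest share of wild-type-only promoters counted over all members of a list, though not among members called in both wild-type libraries. Of 26 apoptosis genes, 24 and 23 were called in wild type and 6 and 11 in the 1-allele libraries, and 12 (46.2%) were wild-type-only. They included the mitochondrial factors Endog (fold 6.58 and 8.20 in wild type), a nuclease released in cell death, and Diablo (6.72 and 7.44), which frees caspases from their inhibitors. They also included Birc5, or survivin (5.83 and 5.45), the BH3-only protein Bad (4.51 and 5.19), the death receptor adaptor Fadd (4.97 and 6.43) and the TNF receptor Tnfrsf1a (4.49 and 4.15). The 6 members called in all 4 libraries included Cflar, which blocks caspase activation at death receptors, with a fold of 7.66 and 7.02 in wild type and 6.26 and 5.39 in the 1-allele libraries. They also included Mcl1, a survival protein of the BCL2 family (6.80 and 6.62 against 5.59 and 5.31), Birc2, an inhibitor of apoptosis (7.04 and 7.26 against 5.48 and 6.995), and the kinase Ripk1 (8.04 and 7.81 against 8.31 and 7.55). The members called in both wild-type libraries had a median wild-type percentile of 70.1, close to 72.0 over all genes. In equal lists, 2 of the 26 (7.69%) were wild-type-only and 1 (3.85%) was 1-allele-only, against 1.76% and 0.841% of all genes.

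Fewer pit and parietal cell genes, too, were called on the full 1-allele lists. Of 18 pit cell genes, 12 and 14 were called in wild type and 4 and 4 in the 1-allele libraries, and 6 (33.3%) were wild-type-only. These were Car9, a carbonic anhydrase (fold 5.91 and 4.53 in wild type), Psca (3.86 and 3.68), Mucl3 (3.92 and 3.16), the gastrokine Gkn2 (4.59 and 3.35), the glutathione transferase Gsta4 (3.71 and 3.75) and the calpain Capn9 (4.00 and 3.28). Foxq1, a factor that controls mucin expression in pit cells, was called in all 4, at 4.83 and 5.12 against 4.84 and 3.86. Of 24 parietal cell genes, 17 and 12 were called in wild type and 5 and 4 in the 1-allele libraries, with 5 (20.8%) wild-type-only. Hrh2, the receptor through which histamine stimulates acid release, had a fold of 5.88 and 4.83 in wild type, and Esrrg, a nuclear receptor of mitochondrial genes, 6.29 and 3.71. Clic6, Slc12a2 and Kcnj15, which carry ions, were the other 3. Car2, the carbonic anhydrase that supplies protons, was called in all 4 (7.004 and 5.004 against 5.23 and 4.77), as was Ezr, the linker of microvilli to actin (4.35 and 5.04 against 4.59 and 3.82). Of the wild-type-only parietal genes, Hrh2 and Esrrg were also on no NICD and no 2-allele H3K27ac list. In equal lists, parietal genes numbered 5 and 3 in wild type and 5 and 4 in the 1-allele libraries, with 0 wild-type-only. Pit genes there numbered 2 and 3 in wild type and 4 and 1 in the 1-allele libraries. Of the pit genes 1 (5.56%) was wild-type-only, against 1.76% of all genes.

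Chief and neck cell genes were called at few promoters in any library. Of 15 chief cell genes, 4 and 4 were called in wild type and 2 and 3 in the 1-allele libraries, none of them wild-type-only. Xbp1, the factor that builds the secretory apparatus, was called in all 4 (fold 6.18 and 6.18 against 5.73 and 4.52). Of 19 mucous neck and metaplasia genes, 8 and 5 were called in wild type and 2 and 3 in the 1-allele libraries, and Sox9 and Gpx2 were wild-type-only. Endocrine (18 genes), squamous forestomach (16) and intestinal genes (18) had at most 2 called members in any of the 4 libraries.

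Genes of the isthmus, of Wnt signalling and of the stomach's transcription factors followed. Of 28 Wnt genes, 16 and 16 were called in wild type and 5 and 6 in the 1-allele libraries, with 8 (28.6%) wild-type-only. They included the signal relays Dvl2 and Dvl1, the receptor Fzd5, the ubiquitin ligase Znrf3, which removes Wnt receptors, and the factors Sox9 and Tcf7l1. The co-receptors Lrp6 (9.97 and 10.7 against 6.60 and 6.88) and Lrp5 and the inhibitor Apc were called in all 4. Of 17 isthmus and stem cell genes 5 (29.4%) were wild-type-only, among them Sox2 and Tnfrsf19. Of 26 gastric transcription factors 5 (19.2%) were wild-type-only, among them Foxa2, Gata4, Sox21 and Sox2. Another 7 (26.9%) were called in all 4, among them Hnf4a, which specifies endoderm-derived epithelia (6.99 and 5.63 against 4.15 and 4.69), and Klf5, of dividing epithelia (5.29 and 5.88 against 3.93 and 5.67). In equal lists, Wnt genes numbered 6 and 7 in wild type and 5 and 5 in the 1-allele libraries. Of the Wnt genes 1 (3.57%) was wild-type-only there, against 1.76% of all genes, and 0 isthmus genes and 0 gastric transcription factors were.

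Notch pathway genes held strong promoters called in all 4 libraries. Of 35 genes, 22 and 23 were called in wild type and 10 and 17 in the 1-allele libraries, with 4 (11.4%) wild-type-only, close to the 11.5% of all genes, and 10 (28.6%) called in all 4. Beside Notch1 and Hes1, the wild-type-only members were the co-activator Maml3 (fold 3.80 and 3.76) and Nrarp, a target that feeds back on Notch (3.67 and 4.52). Jag1, a Notch ligand, was called in all 4 with a fold of 9.55 and 11.3 in wild type and 6.92 and 6.64 in the 1-allele libraries. Psen2, part of the gamma-secretase that releases the intracellular domain, and Adam17 and Adam10, which cut the receptor first, were also called in all 4. In equal lists, 0 of the 35 were wild-type-only, 1 (2.86%) was 1-allele-only and 7 (20%) were on all 4. Over all genes these shares were 1.76%, 0.841% and 9.33%.

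The secretory, junction and chromatin lists divided within themselves. All 24 genes of endoplasmic reticulum stress and secretion were called in both wild-type libraries, and 11 and 16 in the 1-allele libraries, with 8 (33.3%) wild-type-only. Those included the translocon subunit Sec61b (fold 6.24 and 5.91), the chaperone Calr (5.26 and 4.74) and the stress sensor Atf6 (6.74 and 5.09), while Herpud1, Atf4, Xbp1 and Canx were called in all 4. In equal lists, 11 and 13 secretory genes were on the wild-type and 11 and 14 on the 1-allele lists. Of them 1 (4.17%) was wild-type-only, against 1.76% of all genes. Of 24 epithelial junction and keratin genes 7 (29.2%) were wild-type-only, among them Cdh1, or E-cadherin (5.17 and 6.19), and the keratins Krt18, Krt8 and Krt7. Ctnna1, Dsp, Epcam and Tjp1, which also serve cell contacts, were called in all 4. Of 35 chromatin enzymes 6 (17.1%) were wild-type-only, with Hdac1 (8.37 and 5.33), Kmt2a, Brd3, Hdac5, Hdac3 and Dot1l, and 18 (51.4%) were called in all 4, with the acetyltransferases Kat7 and Ep300, the deacetylase Hdac2 and the H3K27 methyltransferase Ezh2. Of 29 SWI/SNF genes 3 (10.3%) were wild-type-only (Ss18l1, Dpf2 and Arid2) and 7 (24.1%) were called in all 4, among them Smarce1, Phf10, Brd9 and Smarcd1. In equal lists, 2 junction and keratin genes (8.33%), 2 SWI/SNF genes (6.90%) and 0 chromatin enzymes were wild-type-only, against 1.76% of all genes.

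In the stress, energy and growth lists, members called in all 4 libraries were at least as many as wild-type-only members. Of 30 p53 pathway genes, 3 (10%) were wild-type-only and 10 (33.3%) were called in all 4, among them Polk, Ccng1, Mdm2, which degrades p53, and Perp. Of 28 mitochondrial energy genes, 5 (17.9%) were wild-type-only, with Ndufa4 and Ndufs1 of the respiratory chain, Ppargc1b, Cpt1a and Esrrg, and 13 (46.4%) were called in all 4, among them Atp5a1 of the ATP synthase (10.5 and 11.8 against 7.40 and 5.96). Of 25 immediate early genes, 6 (24%) were wild-type-only, with Egr2, Fosb, Zfp36, Ier3, Fosl1 and Junb, and 9 (36%) were called in all 4, led by Nr4a2 (9.71 and 8.68 against 8.58 and 9.19). Of 36 cell cycle genes, 15 and 13 were called in wild type and 5 and 4 in the 1-allele libraries, with Mcm4, Cdk4 and Aurka wild-type-only. Of 30 inflammatory genes, 3 (10%) were wild-type-only (Relb, Socs3 and Myd88) and 10 (33.3%) were called in all 4, among them Nfkb1, Stat3 and Tnfaip3. Of 30 housekeeping genes, 3 (10%) were wild-type-only, so promoters of some genes used by every cell were also not called in the 1-allele libraries. Of 30 genes silent in the gland, at most 2 were called in any library. In equal lists, 3 mitochondrial (10.7%) and 2 p53 genes (6.67%) were wild-type-only, against 1.76% of all genes. Housekeeping genes had 1 such member there, and immediate early, cell cycle and inflammatory genes had 0.

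**Figure D5:**
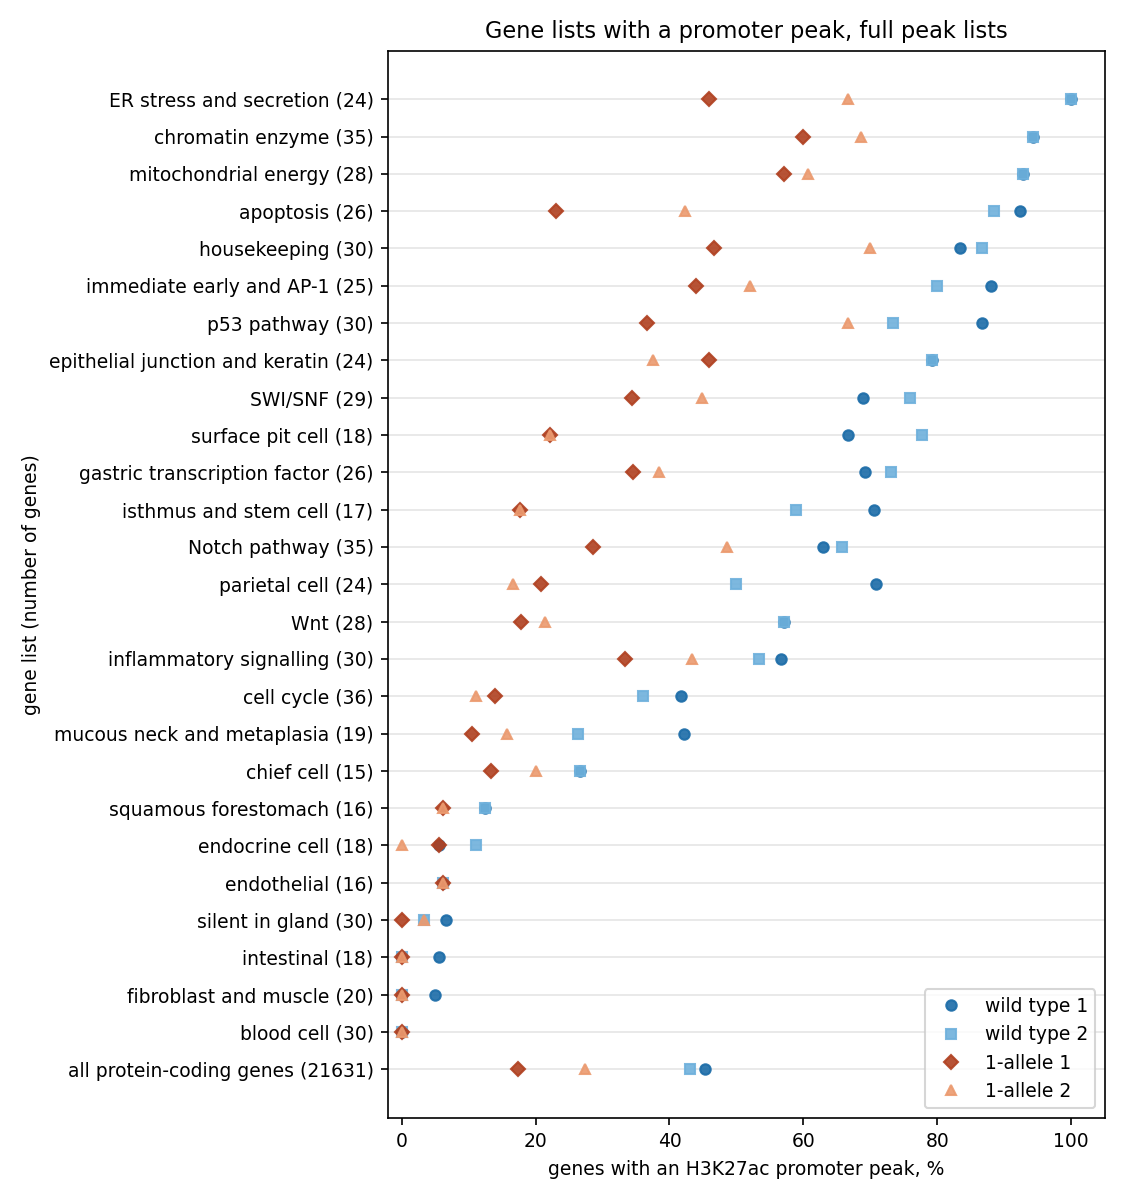
Share of the genes of each list (percent, horizontal axis) that had an H3K27ac promoter peak in each of the 4 full lists, with the number of genes in parentheses and all 21631 protein-coding genes at the bottom. The marks of the 2 wild-type libraries (blue) lie to the right of those of the 2 1-allele libraries (red) for most lists, with apoptosis genes at 92.3% and 88.5% against 23.1% and 42.3%, and marks of equal value cover each other.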

How the data were processed

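Chromatin of stomach glands was immunoprecipitated for H3K27ac in 2 wild-type and 2 1-allele libraries. The submitters' processing notes name Bowtie2, MACS2 and the build GRCm38 (mm10). The authors ran MACS 2.0.10.20131216 on each library alone, per the file headers, with no control, duplicates removed, a q-value cutoff of 0.05, a local background of 10 kb and the effective genome size of the human setting, 2.7 Gb. For each peak the deposited lists give a width, a pileup signal at the summit, −log10 of the p-value and of the q-value, and the fold over local background. Peaks were ranked, filtered or described by these scores of the authors. The deposited 2-allele lists hold positions only.

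Peaks on chromosomes 1 to 19 and X were merged where they overlapped by at least 1 bp. Starts of 17274 of 21631 genes came from the RefSeq promoter table. For 2581 genes without one, the gene end with an H3K4me3 peak was used, and for 1776 both ends. Of 10013 genes of known strand with H3K4me3 at a single end, 97.1% had it at the 5′ end. Genes sharing a promoter peak were counted separately. Values per library were compared by two-sided exact permutation tests with Benjamini-Hochberg adjustment. Counts of regions and genes have no test. Shares carry counting error only.

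Members and lists were chosen with earlier results of these data known. All 647 list names matched. Named were the genes of the genotypes, the 12 strongest promoters and 10 strongest distal regions per direction, up to 6 separating and 4 shared members of each list, and the 12 largest rank differences per direction, apart from a few that are not reported here. Scripts were tested on simulated lists and recovered 6 of 6 quantities. Python 3.11.15, pandas 2.3.3 and numpy 2.4.6 were used.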

Additional observations from a re-analysis of the deposited data

How the results depend on the processing

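Counts that ask 1 library fewer to agree are larger by construction. Without 1 of the 4 libraries in turn, wild-type-only regions of the full lists numbered 6555 to 12149, 1-allele-only regions 39 to 344, wild-type-only promoters 3017 to 4978, 1-allele-only promoters 1 to 53, and the distal share of wild-type-only regions was 32.9% to 52.6%. In equal lists the same quantities were 880 to 1186, 534 to 1412, 728 to 920, 432 to 779, and 12.5% to 23.8%. The distal share was also 39.2% with peaks of −log10 q of at least 3 and 38.2% with a promoter window of 2.5 kb. With 2582 peaks per list, wild-type-only regions numbered 257, wild-type-only promoters 249, and the distal share was 10.1%. The gap of distal minus promoter regions turned from -5.01 to 0.491 points in equal lists, and the difference in median width from 33.5 to -9 bp without 1-allele replicate 2 (76 bp without 1-allele replicate 1). The causes of these last changes were not tested. Of the alternative values, 82 stayed within the limit set for their kind, 38 moved and 2 turned sign. For values per library that limit was the sign alone, so their size may differ. Counts were allowed a limited change in size. One p-value threshold for all 4 lists, chosen after seeing the data, left 5500 wild-type-only and 4 1-allele-only regions.

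The replicate numbers only name the libraries: over 3478 shared regions, the rank differences between replicates 1 and 2 of the 2 genotypes had a correlation of -0.02. With a replicate block, the difference in peaks stayed at -13092 (exact permutation p = 0.5, the smallest possible with 2 pairs).

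Depth, fragment length and redundancy differed between the libraries, and their part in the shorter 1-allele lists was not tested. A weak region can be missed in a library of low enrichment, and calls without a control can miss broad domains.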

Other observations

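Promoters of microRNA genes showed the one-sided pattern of the protein-coding genes. Of 1005 hairpins in the RefSeq table (GRCm38.p6), 22 had a peak within 1 kb in both wild-type and neither 1-allele library, 0 had the opposite pattern, and 22 were called in all 4. The wild-type-only hairpins included Mir375 (chr1:74900658-74900721), a microRNA of endocrine and gastric epithelium, and Mir192 and Mir194-2, a pair transcribed together on chromosome 19 and abundant in gut epithelium. They also included Mir210, which responds to low oxygen, and Mir152, while Mirlet7i and Mir193a were called in all 4. These names were picked after the values were seen, and a peak near a hairpin can belong to a host or neighbouring gene.

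The share of both-wild-type regions that were wild-type-only ran from 33.6% on chromosome 18 to 49.9% on chromosome 8, with 49.5% on the X chromosome.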
